A study of Mus musculus with 12 samples.

Results

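Interferon-stimulated genes are the genes that a cell switches on after type I, type II or type III interferon binds its receptor. The receptors activate the kinases JAK1, JAK2 and TYK2, and these activate transcription factors of the STAT family. Together with IRF9, STAT proteins bind a short promoter element, the interferon-stimulated response element (ISRE), while STAT dimers bind the gamma-activated site (GAS). The products detect viral RNA and DNA, degrade nucleic acids, tag proteins with the ubiquitin-like protein ISG15 or block viruses at membranes, and neutrophils are known to transcribe many of them. Here 44 such genes were described in neutrophils treated with bile acids. They were taken by name from a count table of 29737 genes, and all 44 were found. Of these, 42 passed the filter on low counts and were tested among 16761 genes, while Iigp1 (0 to 4 counts per sample) and Ifi44 (0 to 16 counts) did not pass.

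Bile acids accumulate in the liver when bile flow is blocked, and the study asked how they act on neutrophils. Bone marrow neutrophils of wild-type mice, female C57BL/6 animals of 4 to 6 weeks by the methods of the study, were selected with magnetic beads and kept for 24 h in RPMI medium with fetal bovine serum. The medium held PBS as the vehicle, taurocholic acid (TCA, 200 µM), glycocholic acid (GCA, 200 µM) or tauro-β-muricholic acid (Tβ-MCA), with 3 samples in each of the 4 groups. The labels give 10 µM for Tβ-MCA, while the methods of the study give the same dose for every bile acid. TCA and GCA are cholic acid joined to taurine or to glycine, and Tβ-MCA is β-muricholic acid, a bile acid typical of mice, joined to taurine. No group was treated with interferon, so the response of these genes to interferon itself was not measured. Nothing in the labels says whether samples came from separate mice, so p-values measure only the spread between samples, which may be technical.

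Total counts lay between 32757389 and 41375925 per sample. All 11 neutrophil markers examined were detected, and together they made up between 38370 and 59330 CPM (counts scaled to a common library size, normalized by the TMM method) in a sample. The 14 monocyte and macrophage markers summed to between 1372 and 2580 CPM, of which Cybb alone held between 922.7 and 1263 CPM. The 8 T and NK cell markers in the table summed to at most 2.826 CPM. Of 21 interferon genes looked up, 5 had an entry in the count table. These were Ifna16, Ifnab, Ifnk, Ifnz and Ifng, with between 0 and 4 counts in any sample, and none passed the filter. The other 16 were not analysed here.

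The promoters of the 6 genes that differed between Tβ-MCA and PBS are printed first, because they show which of these genes carry the elements that interferon signalling uses. RefSeq promoter windows on GRCm38.p6, from 250 bases before the annotated start to 50 bases after it, were matched to 33 of the 44 genes. The genes without an entry were Mx2, Oas2, Iigp1, Usp18, Parp9, Zbp1, Mx1, Ifi27, Rtp4, Dhx58 and Parp14. The ISRE was searched by its core, GAAANNGAAA, and the GAS by TTCNNNGAA, where N is any base, on both strands. Each sequence reads 5′ to 3′ in the direction of transcription. Capitals mark a match to either element, and a core on the opposite strand reads TTTCNNTTTC.
Ifitm3, chr7:141010695-141010994, minus strand: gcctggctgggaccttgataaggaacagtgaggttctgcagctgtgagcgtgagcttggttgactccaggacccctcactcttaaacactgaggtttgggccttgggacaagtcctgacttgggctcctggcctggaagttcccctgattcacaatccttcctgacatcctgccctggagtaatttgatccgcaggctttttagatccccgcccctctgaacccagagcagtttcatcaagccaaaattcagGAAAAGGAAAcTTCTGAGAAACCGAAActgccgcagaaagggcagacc
Ifitm2, chr7:140955912-140956211, minus strand: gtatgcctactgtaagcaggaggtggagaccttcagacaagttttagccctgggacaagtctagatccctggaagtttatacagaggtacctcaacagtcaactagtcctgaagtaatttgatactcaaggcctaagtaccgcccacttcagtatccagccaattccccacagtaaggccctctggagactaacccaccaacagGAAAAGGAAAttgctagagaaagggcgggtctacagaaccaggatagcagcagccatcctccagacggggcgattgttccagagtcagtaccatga
Ifit1, chr19:34640639-34640938, plus strand: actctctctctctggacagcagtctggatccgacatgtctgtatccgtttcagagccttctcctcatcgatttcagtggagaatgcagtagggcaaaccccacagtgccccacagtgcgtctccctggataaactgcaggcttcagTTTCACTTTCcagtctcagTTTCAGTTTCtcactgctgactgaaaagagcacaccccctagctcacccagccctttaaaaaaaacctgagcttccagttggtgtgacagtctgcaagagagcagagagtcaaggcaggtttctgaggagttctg
Ifitm6, chr7:141016843-141017142, minus strand: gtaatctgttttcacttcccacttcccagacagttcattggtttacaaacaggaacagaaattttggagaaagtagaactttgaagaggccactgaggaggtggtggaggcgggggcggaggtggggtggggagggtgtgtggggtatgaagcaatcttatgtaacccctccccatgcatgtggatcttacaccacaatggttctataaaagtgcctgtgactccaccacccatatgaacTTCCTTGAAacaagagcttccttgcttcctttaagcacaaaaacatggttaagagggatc
Samhd1, chr2:157135047-157135346, minus strand: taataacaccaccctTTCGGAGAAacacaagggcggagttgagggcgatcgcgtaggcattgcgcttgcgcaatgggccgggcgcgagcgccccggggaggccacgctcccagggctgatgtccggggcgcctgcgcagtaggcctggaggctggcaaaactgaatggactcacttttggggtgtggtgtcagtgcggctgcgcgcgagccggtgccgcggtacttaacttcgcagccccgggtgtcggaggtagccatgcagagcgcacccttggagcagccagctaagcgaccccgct
Dtx3l, chr16:35938978-35939277, minus strand: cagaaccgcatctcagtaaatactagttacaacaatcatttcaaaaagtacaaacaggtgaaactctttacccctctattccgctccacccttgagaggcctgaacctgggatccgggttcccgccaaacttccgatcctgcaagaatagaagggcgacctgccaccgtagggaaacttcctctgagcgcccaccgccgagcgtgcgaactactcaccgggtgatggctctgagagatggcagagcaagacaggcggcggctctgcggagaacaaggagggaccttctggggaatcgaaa

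The 6 promoters were not alike in these elements. Ifitm3 held 2 cores after its start, at bases 3 to 12 and 20 to 29, and the second overlapped a GAS match at bases 14 to 22. Ifitm2 held 1 core at bases -46 to -37, where negative numbers count back from the start, and Ifit1 held 2 on the opposite strand, at -104 to -95 and -85 to -76. Ifitm6 and Samhd1 had a GAS match, at -10 to -2 and -235 to -227, and no core, and the window of Dtx3l had neither. Over all promoters, the core occurred in 17 of the 33 genes (51.5%), against 3.99% of the 27025 genes of the promoter table. The GAS letters occurred in 10 of the 33 (30.3%), against 9.55%. A match describes the letters only, and binding was not measured.

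**Figure D1:**
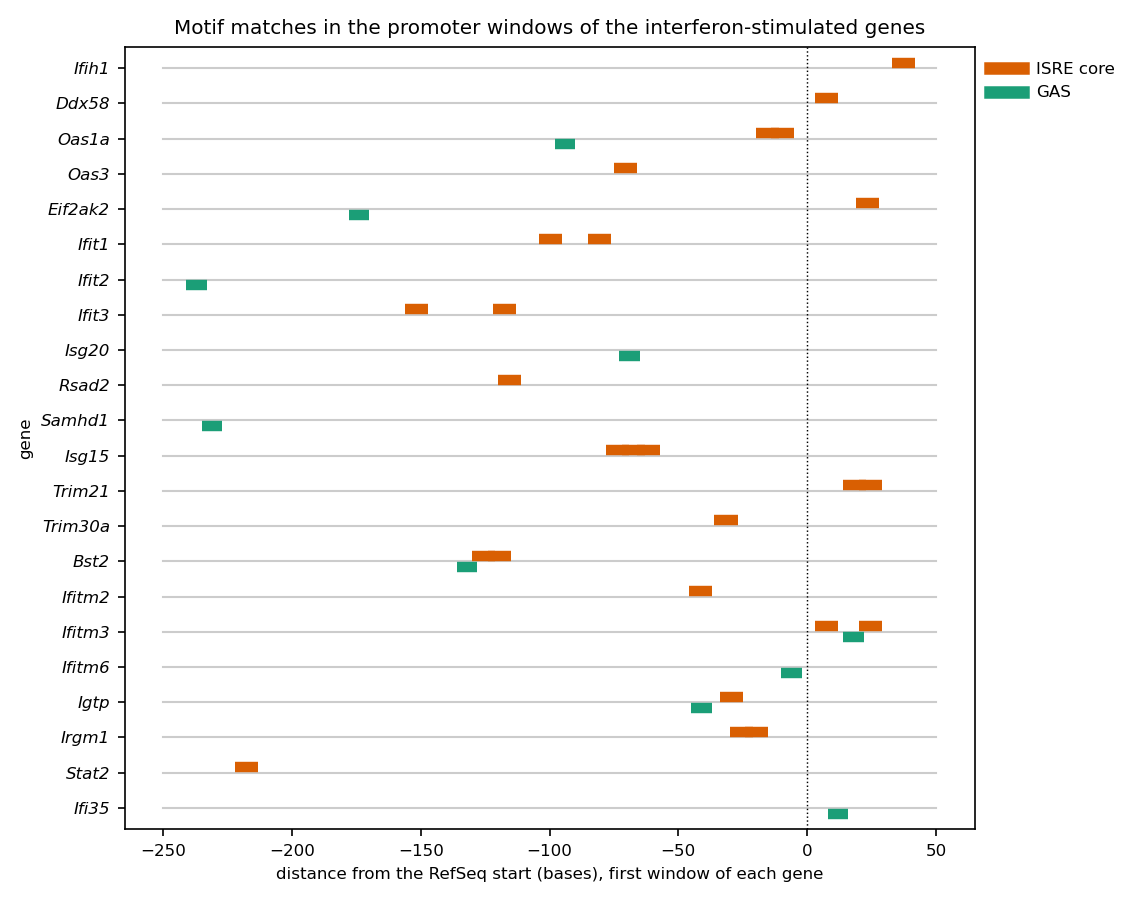
Positions of ISRE core matches (orange) and GAS matches (green) in the first RefSeq promoter window of each interferon-stimulated gene with a match, with the distance from the annotated start in bases on the x axis and genes on the y axis. The ISRE core farthest from a start is that of Stat2, at -222 to -213, those of Ifitm3 lie after the start, and Ifitm6 and Samhd1 carry a GAS match alone.

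The levels of these genes in neutrophils covered a wide range. Per length of transcript, Ifitm3 had the highest mean over the 12 samples (150.7 RPKM, reads per kilobase of exon, scaled to the size of the library), followed by Ifitm6 (138.8), Samhd1 (50.12), Sp100 (38.78) and Ifitm2 (33.18). Ifitm3 stood at the 97.9th percentile of all genes tested by RPKM, and Ifitm6 at the 97.7th. The middle of the order was held by genes such as Oas3 (4.948 RPKM) and Isg15 (4.106 RPKM). The lowest of the 42 tested genes were Usp18 (0.8676 RPKM), Mx1 (0.7817) and Mx2 (0.2033). Within the PBS group the mean was 177.8 ± 12.36 RPKM (SD, n = 3) for Ifitm3 and 149.1 ± 6.433 for Ifitm6, so these 2 genes differed by more than the spread between samples, while Samhd1 (53.21 ± 0.7017) and Sp100 (38.34 ± 2.225) followed well below.

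With Tβ-MCA, 6 of the 42 genes tested differed from PBS at an adjusted p under 0.05, by the quasi-likelihood test of edgeR, with p-values adjusted over all genes by the Benjamini-Hochberg method. This was 14.3% of them, against 7.62% of all genes tested. Ifitm3, Ifitm2, Ifitm6 and Samhd1 were lower and Dtx3l and Ifit1 were higher, so the genes did not move in a single direction. Among all genes tested, 4.44% were called higher and 3.18% lower. The median log2 fold change of the 42 genes was -0.11, with 29 of 42 estimates below 0, and that of all genes was 0.004. At an unadjusted p under 0.05 there were 12 lower and 5 higher genes among the 42, against 12.3% of all genes lower and 12.6% higher (24.9% together). The 3 samples of each group did not overlap for 9 genes that lay below PBS and 3 that lay above, against 12.8% of all genes below and 14.1% above (27% together). The plot of levels relative to PBS shows the 42 genes sample by sample.

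**Figure D2:**
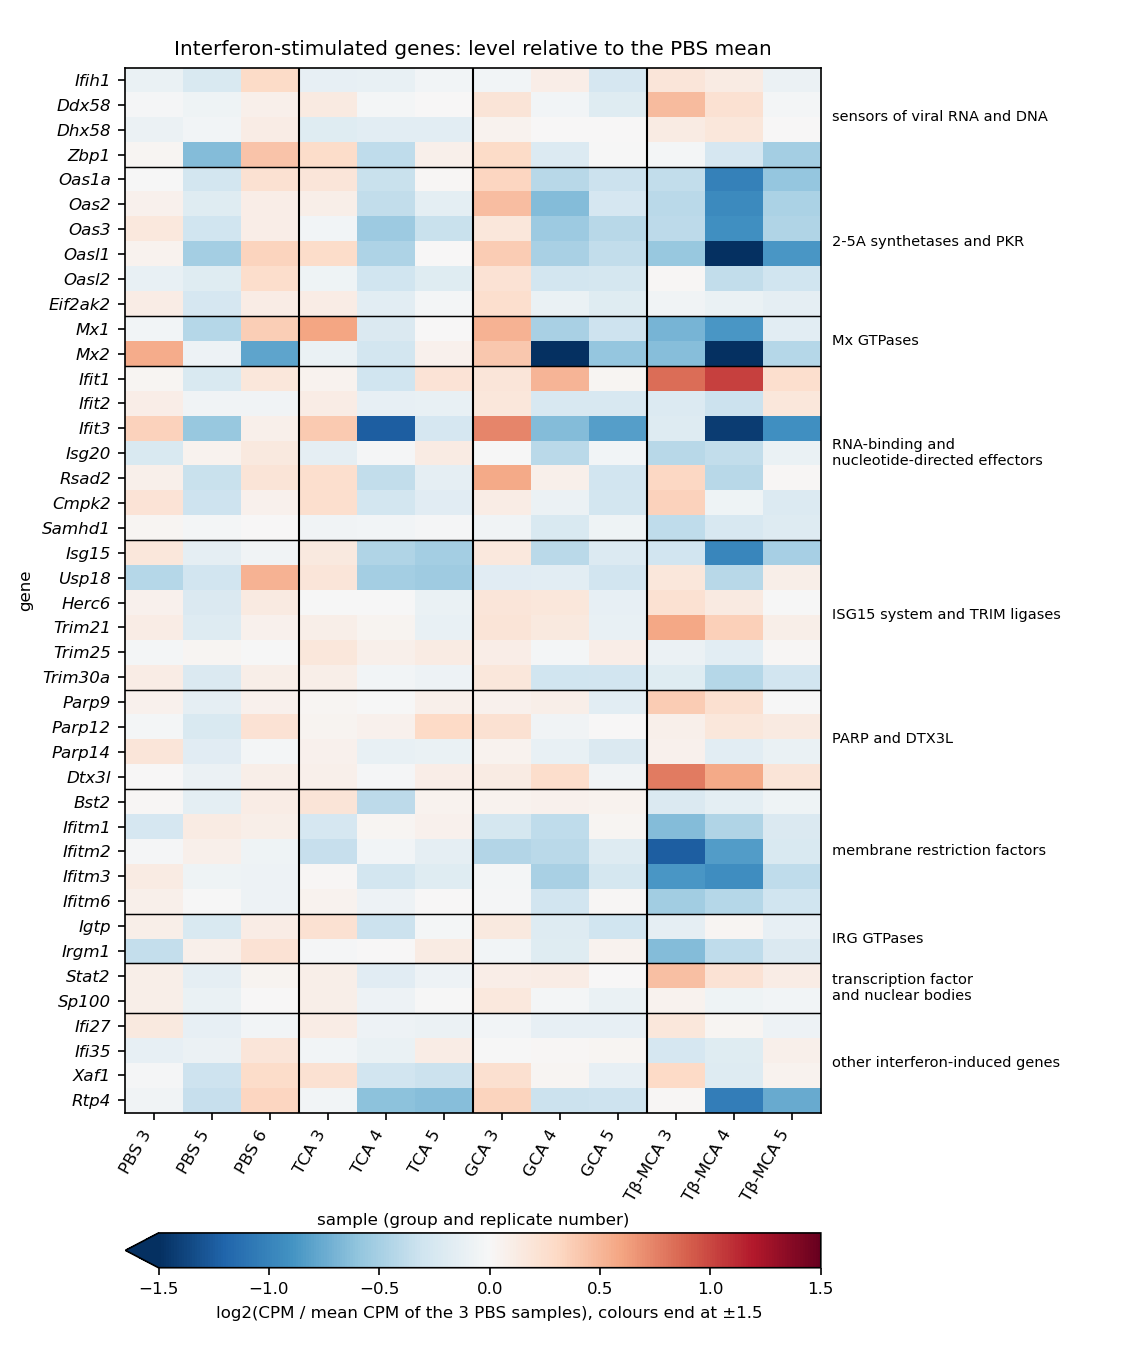
Levels of the 42 tested interferon-stimulated genes (rows, grouped by role) in the 12 samples (columns, group and replicate number), as the log2 ratio of CPM to the mean of the 3 PBS samples; blue is lower, red is higher, and colours end at 1.5 in either direction. Ifitm2, Ifitm3, Oasl1 and Mx2 are blue and Dtx3l and Ifit1 red in the Tβ-MCA columns, and several genes of replicate 3 are redder than the other samples of their group.

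Membrane restriction factors held 3 of the 4 genes that fell. These small proteins of the IFITM family sit in cell membranes and hinder the entry of enveloped viruses, and their genes lie together on chromosome 7, from 140954837 for Ifitm2 to 141017924 for Ifitm6. Ifitm3 (chromosome 7, 141009586 to 141010770) had 133.3, 116.6 and 116.1 CPM with PBS and 66.73, 64.18 and 93.37 CPM with Tβ-MCA. Every Tβ-MCA sample lay below every PBS sample. The log2 fold change was -0.71 with an SE of 0.15 (edgeR, adjusted p = 0.025). TCA gave 100.6 to 123.4 CPM and GCA 87.2 to 119.7 CPM for the same gene, and both ranges overlapped that of PBS.

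Ifitm2 (chromosome 7, 140954837 to 140955987) had 26.15, 27.88 and 25.42 CPM with PBS and 11.27, 14.76 and 22.58 CPM with Tβ-MCA. The groups did not overlap, although replicate 5 of Tβ-MCA lay much nearer to PBS than the others. The log2 fold change was -0.71 with an SE of 0.19 (edgeR, adjusted p = 0.0452). Its span, from first to last annotated base, overlaps that of the transcript RP24-243J4.5 on the same strand. Whether exons overlap was not examined. If they do, reads of the pair may have been split or dropped in counting, so the value is uncertain. With GCA the gene had 19.48 to 23.1 CPM, also below every PBS sample, but the test did not call it (log2 fold change -0.34, SE 0.19, edgeR adjusted p = 0.999). Ifitm2 and Samhd1 were the 2 of the 42 genes that lay below every PBS sample with GCA, against 4.83% of all genes.

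Ifitm6 (chromosome 7, 141015699 to 141017924), which is known as a leukocyte member of the family, had 144, 136.4 and 129.3 CPM with PBS and 95.31, 101.6 and 111.4 CPM with Tβ-MCA. Its Tβ-MCA samples lay below all PBS and all TCA samples (130 to 141.2 CPM). It had the lowest p of the 42 genes, with a log2 fold change of -0.41 and an SE of 0.08 (edgeR, adjusted p = 0.0208). Ifitm1, with 10.7 to 13.91 CPM in PBS and 8.132 to 10.97 CPM in Tβ-MCA, did not pass (log2 fold change -0.42, SE 0.15, edgeR adjusted p = 0.0846). Bst2, which encodes tetherin, a protein that holds budding viruses at the cell surface, had 4.529 to 5.418 CPM in PBS and 4.305 to 4.789 CPM in Tβ-MCA and was not called either.

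Among the RNA-binding and nucleotide-directed effectors, 1 gene fell and 1 rose of 7. Samhd1 (chromosome 2, 157097533 to 157135265) encodes an enzyme that breaks down deoxynucleotides and so starves reverse transcription. It had 501.2, 483.8 and 492.5 CPM with PBS and 378.1, 417.5 and 431.9 CPM with Tβ-MCA. The samples of each group were close together and did not overlap, and the change was small (log2 fold change -0.27, SE 0.07, edgeR adjusted p = 0.029).

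Ifit1 (chromosome 19, 34640871 to 34650009), whose product binds viral RNA that lacks the cap modification of the host, had 3.527, 2.97 and 3.908 CPM with PBS. With Tβ-MCA it had 6.189, 7.044 and 4.12 CPM, all above PBS. It showed the largest positive log2 fold change of the 42 genes (0.74, SE 0.21, edgeR adjusted p = 0.0429). Its neighbours of the same family did not pass. Ifit2 had 6.172 to 6.882 CPM with PBS and 5.128 to 7.223 CPM with Tβ-MCA, and Ifit3 had 3.823 to 7.168 and 2.105 to 4.963 CPM (log2 fold change -0.76, SE 0.55). Ifit3 has the near-identical copy Ifit3b, so its counts may be split between the pair. Rsad2 (viperin), Cmpk2 and Isg20 had log2 fold changes between -0.29 and 0.04, and none passed.

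Dtx3l (chromosome 16, 35926511 to 35939151) encodes a ubiquitin ligase that works in a complex with PARP9. It had 66.64, 62.38 and 70.62 CPM with PBS and 114.5, 98.6 and 76.24 CPM with Tβ-MCA, so that all Tβ-MCA samples were higher. The log2 fold change was 0.53 with an SE of 0.12 (edgeR, adjusted p = 0.0256). Parp9, its partner, overlaps it head to head on the opposite strand. It had 38.91 to 44.59 CPM with PBS and 42.48 to 55.34 CPM with Tβ-MCA (log2 fold change 0.21, SE 0.10, edgeR adjusted p = 0.191). The sources used here do not give the strand setting of the counting, so the shared part of both genes adds uncertainty. Parp12 and Parp14, other ADP-ribosyltransferases of the response, had log2 fold changes of 0.13 and -0.06 and were not called.

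**Figure D3:**
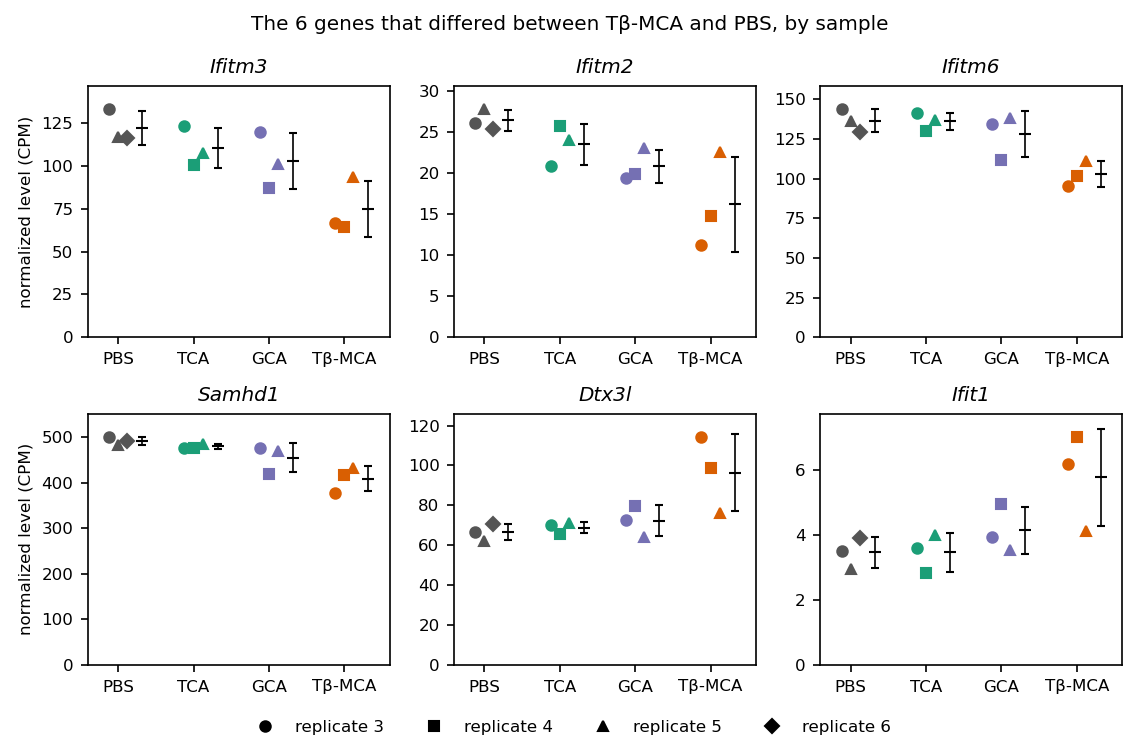
Normalized level in CPM (y axis, from 0) of the 6 genes that differed between Tβ-MCA and PBS, in each sample of the 4 groups (x axis); marker shapes give the replicate number, and black bars the mean ± SD of 3 samples. Ifitm3, Ifitm2, Ifitm6 and Samhd1 are lower and Dtx3l and Ifit1 higher with Tβ-MCA, and replicate 5 of Tβ-MCA is the sample nearest to PBS in each panel.

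None of the 6 genes of the oligoadenylate synthetase group and PKR was called, although all 6 estimates were below 0, with a median log2 fold change of -0.58. The synthetases make short adenylate chains when they bind double-stranded RNA, and Eif2ak2 encodes PKR, a kinase that stops translation when it binds the same kind of RNA. Oasl1 had 7.34, 4.97 and 8.949 CPM with PBS and 4.784, 2.24 and 3.879 CPM with Tβ-MCA. Its groups did not overlap, but the spread was wide (log2 fold change -0.97, SE 0.33, edgeR adjusted p = 0.0938). Oas1a, Oas2 and Oas3 also had all 3 Tβ-MCA samples below PBS, with log2 fold changes of -0.63, -0.59 and -0.57 and adjusted p between 0.0946 and 0.156. Eif2ak2, the most abundant of the group per length, had 68.13, 52.97 and 67.73 CPM with PBS and 60.63, 58.84 and 57.22 CPM with Tβ-MCA, which overlapped. With the replicate block the median of the group was -0.36, and the estimates of Oasl2 and Eif2ak2 turned to 0.01. Oasl1 (-0.57, adjusted p = 0.0381) and Oas3 (-0.37, adjusted p = 0.0301) were then called lower by edgeR. Over all 42 genes the block gave 4 higher and 6 lower calls, against 4.6% and 4.34% of all genes. Of the higher calls, 1 was in the ISG15 system and TRIM ligases and 1 in the group of the transcription factor and nuclear bodies.

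No sensor of viral nucleic acid was called. Ddx58, which encodes RIG-I, had 47.34, 45.7 and 50.67 CPM with PBS and 66.76, 56.14 and 46.9 CPM with Tβ-MCA, and replicate 5 of Tβ-MCA lay within PBS (log2 fold change 0.24, SE 0.12, edgeR adjusted p = 0.215). Ifih1, Dhx58 and Zbp1 had log2 fold changes of 0.08, 0.11 and -0.25. The Mx GTPases, which trap viral capsids, were among the lowest of the 42 genes per length. Mx1 had 2.925, 2.235 and 3.881 CPM with PBS and 1.854, 1.646 and 2.702 CPM with Tβ-MCA (log2 fold change -0.54, SE 0.31). Mx2, at 0.5391 to 1.376 CPM with PBS and 0.08097 to 0.6956 CPM with Tβ-MCA, had the lowest estimate of all 42 genes (-1.02), but its SE of 0.62 left it far from the threshold, and the lowest Tβ-MCA sample held 3 counts.

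In the ISG15 system and the TRIM ligases, no gene of 6 passed. Isg15 itself had 4.072, 3.294 and 3.504 CPM with PBS and 2.96, 1.835 and 2.568 CPM with Tβ-MCA, all lower (log2 fold change -0.56, SE 0.22, edgeR adjusted p = 0.13). Trim21, a cytosolic antibody receptor and ubiquitin ligase, pointed the other way, with 30.51, 24.56 and 29.49 CPM against 42.07, 36.17 and 29.99 CPM (log2 fold change 0.36, SE 0.12, edgeR adjusted p = 0.0856). Trim30a, the most abundant of the group per length, had 109, 87.14 and 107.4 CPM against 89.12, 75.22 and 83.17 CPM (adjusted p = 0.151). Herc6, the ligase that attaches ISG15 in mice, Usp18, which removes it, and Trim25 had log2 fold changes of 0.12, -0.03 and -0.08.

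The remaining groups held no called gene. Stat2, the transcription factor of the pathway among the 44 genes, lay above PBS in every Tβ-MCA sample (77.43, 65.51 and 61.16 CPM against 60.04, 51.41 and 57.87 CPM), with a log2 fold change of 0.27, an SE of 0.09 and an edgeR adjusted p of 0.0877. Sp100, a component of nuclear bodies, had 310.6, 273.3 and 295.4 CPM against 304.6, 280.2 and 285.1 CPM. Of the immunity-related GTPases, which attack the vacuoles of intracellular pathogens, Irgm1 had 31.43, 42.38 and 46.93 CPM against 25.71, 30.98 and 34.54 CPM (log2 fold change -0.40, SE 0.13, edgeR adjusted p = 0.0814). Igtp had 18.04, 14.5 and 18.33 CPM against 15.4, 17.25 and 15.62 CPM, and its span overlaps that of Irgm2 on the same strand. Rtp4 had 5.018, 4.117 and 6.523 CPM against 5.262, 2.537 and 3.103 CPM, and Ifi27 had 15.34, 12.65 and 13.48 CPM against 15.52, 14.09 and 13.16 CPM. Neither these nor Ifi35 and Xaf1 were called.

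Replicate 5 of Tβ-MCA lay nearest to PBS for all 6 called genes. Without it, 12 of the 42 genes were called, 6 higher and 6 lower, against 8.52% of all genes higher and 9.44% lower (18% together), and all 6 of the first calls remained. Irgm1 and Ifitm1 were added among the lower genes and Trim21, Stat2, Parp9 and Ddx58 among the higher. The log2 fold change then was -0.90 (SE 0.12) for Ifitm3, -1.02 (SE 0.13) for Ifitm2 and 0.68 (SE 0.09) for Dtx3l. The calls with all samples were not stable to the loss of other samples, although over all alternatives the log2 fold changes ran from -0.90 to -0.61 for Ifitm3, from -1.02 to -0.50 for Ifitm2, from -0.47 to -0.36 for Ifitm6 and from 0.39 to 0.68 for Dtx3l. No gene was called without PBS replicate 3 or 5 or without Tβ-MCA replicate 3 or 4, and 1 was called without PBS replicate 6, when 0% to 0.981% of all genes were called.

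Markers of several cell types moved with Tβ-MCA. The summed monocyte and macrophage markers were 2580, 2419 and 2455 CPM with PBS and 1372, 1508 and 2153 CPM with Tβ-MCA, with replicate 5 again nearest to PBS. Cybb alone held 1026 to 1263 CPM of this sum with PBS and 922.7 to 1034 CPM with Tβ-MCA. F13a1, which was not called, had 583.8, 518.9 and 528.9 CPM against 54.74, 75.84 and 366.9 CPM. All 14 of these markers had an estimate below 0, and Ly6c2 was called lower (log2 fold change -0.94, SE 0.22, edgeR adjusted p = 0.0353). The summed neutrophil markers were 59330, 49430 and 47910 CPM with PBS and 41940, 38370 and 43700 CPM with Tβ-MCA. Most of this sum was S100a9 (21310 to 25490 and 17450 to 20140 CPM) and Ngp (14410 to 18890 and 12180 to 14670 CPM), and neither was called. Of the 11 markers, 10 had an estimate below 0, and Ly6g, Camp, S100a8 and Mmp9 were called lower. Eosinophil markers summed to 149 to 257.9 CPM with PBS and 56.03 to 132.4 CPM with Tβ-MCA, with Siglecf called lower, while Cd74 of the conventional dendritic cell list and Cd79a of the B cell list were called lower as well. The summed markers of plasmacytoid dendritic cells, which are known as strong producers of type I interferon, were 44.01 to 46.5 CPM with PBS and 42.31 to 48.66 CPM with Tβ-MCA. Runx2 alone held 22.45 to 28.79 CPM of this sum with PBS and 27.3 to 33.25 CPM with Tβ-MCA, so the sum says little about the others. Of the 6 markers of this list that were tested, 3 had an estimate above 0 and 3 below, and none was called. Tcf4 had 6.97 to 10.29 CPM with PBS and 4.076 to 6.795 CPM with Tβ-MCA. No marker of the 7 lists was called higher, against 4.44% of all genes tested. Called lower were 36.4% of the tested neutrophil markers and 7.14% of the monocyte and macrophage markers, against 3.18% of all genes. For eosinophil, conventional dendritic cell and B cell markers the shares were 16.7%, 14.3% and 12.5%, which is 1 gene in each list. The part of these markers in the changes of the interferon-stimulated genes was not tested, and in bulk samples fewer cells of a type cannot be told apart from less RNA per cell.

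TCA and GCA left the 42 genes without a call. Against PBS, edgeR called none of them with either bile acid, as it called 0% of all genes tested, and none had an unadjusted p under 0.05, against 3.26% of all genes with TCA and 3.53% with GCA. DESeq2 called none of the 42 genes as well, against 0.00597% of all genes with TCA and 0% with GCA. The median log2 fold change was -0.04 with TCA and -0.07 with GCA, and neither sign was stable, with 0.07 and 0.09 under the replicate block and values above 0 without PBS replicate 6 (0.03 and 0.05). The extreme estimates with TCA belonged to Rtp4 (5.084, 3.406 and 3.355 CPM, log2 fold change -0.41, SE 0.28) and Mx1 (4.557, 2.585 and 3.031 CPM, 0.16, SE 0.30). With GCA they belonged to Mx2 (1.239, 0.229 and 0.6222 CPM, -0.41, SE 0.59) and Ifit1 (3.942, 4.953 and 3.551 CPM, 0.26, SE 0.21). The 95% interval of the log2 fold change stayed between -0.5 and 0.5 for 27 of the 42 genes with TCA and for 26 with GCA, so larger changes remained possible for the others, among them Ifit3 and Mx2. These comparisons share the PBS samples with that of Tβ-MCA. For the 4 genes that fell with Tβ-MCA, the estimates with GCA were -0.25 for Ifitm3, -0.34 for Ifitm2, -0.09 for Ifitm6 and -0.11 for Samhd1, and with TCA they were -0.14, -0.17, -0.01 and -0.04.

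**Figure D4:**
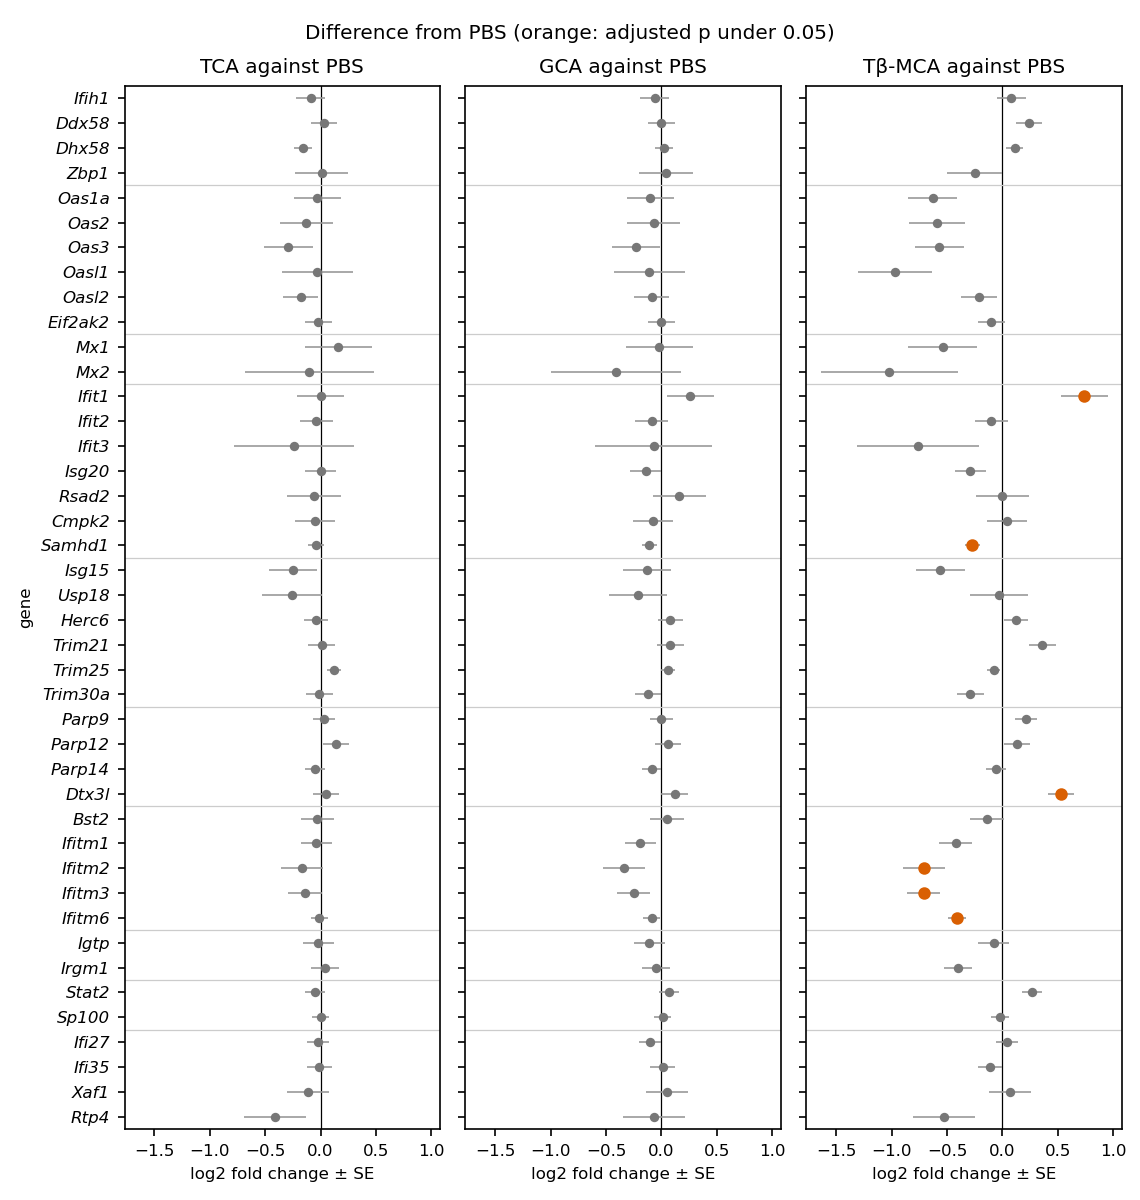
Log2 fold change against PBS (x axis) with its SE for the 42 tested genes (y axis, in the order of the plot of levels by sample), with TCA, GCA and Tβ-MCA from left to right; orange marks an adjusted p under 0.05. The 6 orange genes are all with Tβ-MCA, and with TCA and GCA every estimate lies between -0.41 and 0.26.

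The bile acids were then compared with each other in the same fit, in 3 pairs with p-values adjusted over all genes within each. TCA and GCA differ by the amino acid joined to cholic acid and were used at the same dose and time. No gene of the 42 was called between them by edgeR or DESeq2, and 0% of all genes tested were. Dhx58, with 20.17 to 20.89 CPM in GCA and 17.73 to 18.1 CPM in TCA, was the only one of the 42 at an unadjusted p under 0.05 (log2 fold change 0.19, 95% interval 0.01 to 0.36, adjusted p = 1), against 2.46% of all genes. The 95% interval of GCA against TCA lay between -0.5 and 0.5 for 27 of the 42 genes and between -1 and 1 for 40. It was widest at Mx2 (lower end -1.59) and Ifit3 (upper end 1.38).

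Tβ-MCA and TCA share taurine and differ in the bile acid and, by the labels, in the dose, so compound and dose cannot be told apart. Of the 42 genes, 2 differed between them, which is 4.76% against 3.51% of all genes (2.22% higher and 1.29% lower). Ifitm6 was lower with Tβ-MCA (log2 fold change -0.40, 95% interval -0.58 to -0.23, edgeR adjusted p = 0.0346), and Dtx3l, with 65.57 to 71.09 CPM in TCA, was higher (0.48, 95% interval 0.23 to 0.74, edgeR adjusted p = 0.0457). The other 4 genes that differed between Tβ-MCA and PBS missed the threshold here. Their log2 fold changes were 0.74 for Ifit1, -0.56 for Ifitm3, -0.54 for Ifitm2 and -0.23 for Samhd1, with adjusted p between 0.0562 and 0.122. With the replicate block 5 genes were higher and 13 lower, against 6.9% and 6.96% of all genes. Without Tβ-MCA replicate 5, 13 genes were called, against 15.3% of all genes. No gene was called when any other sample of the 2 groups was left out, when 0% of all genes were.

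Against GCA, edgeR called none of the 42 genes and 0% of all genes, while 11 of the 42 had an unadjusted p under 0.05, against 15.5% of all genes. DESeq2 called 1, against 1.74% of all genes. Of the comparisons between bile acids, only in this one did the deviations of samples with the same replicate number correlate above 0.1 in all 3 numbers. In the other pairs of bile acids the correlations were also above 0 (0.067 to 0.308). The block for the number was fitted to every comparison, and its calls are given here by gene. With the replicate block 4 genes were lower with Tβ-MCA, against 1.98% of all genes called, 1.15% lower. These were Oasl1 (log2 fold change -0.86, SE 0.14, adjusted p = 0.033), Ifitm6 (-0.31, SE 0.07, 0.0364), Oas1a (-0.52, SE 0.11, 0.0384) and Irgm1 (-0.36, SE 0.08, 0.04), all by edgeR. Dtx3l (0.41, SE 0.11) missed the threshold with the block at an adjusted p of 0.0713. Without Tβ-MCA replicate 5, 8 genes were called, against 9.57% of all genes. The labelled dose differs in this pair as well.

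Genes of the signalling pathway and further interferon-stimulated genes were taken from a list of 145, of which 119 were tested. With Tβ-MCA, 11 of them were higher and 11 lower than with PBS (18.5%, against the 7.62% of all genes). Of the 6 interferon receptor chains, all tested, Il10rb, a chain shared by the receptors of type III interferon and interleukin 10, rose with Tβ-MCA (103.1 to 127.4 CPM with PBS and 134.3 to 189.4 CPM with Tβ-MCA, log2 fold change 0.50, SE 0.12, edgeR adjusted p = 0.0294). Ifnlr1, the chain specific to type III interferon, fell (81.72 to 97.52 against 59.65 to 79.75 CPM, -0.41, SE 0.10, adjusted p = 0.0271). Both chains of the type I receptor stayed near PBS, with log2 fold changes of 0.02 for Ifnar1 (SE 0.07) and 0.03 for Ifnar2 (SE 0.06), and Ifngr1 (0.10) and Ifngr2 (-0.19) were not called.

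Among 11 receptor kinases, STAT and IRF factors, only Tyk2 passed in this comparison. It rose from 49.97 to 56.03 CPM with PBS to 60.54 to 75.58 CPM with Tβ-MCA (log2 fold change 0.35, SE 0.09, edgeR adjusted p = 0.0291). Jak1 and Jak2 had log2 fold changes of -0.06 and 0.08. Irf7, which amplifies type I interferon, and Irf9 had -0.39 (SE 0.22, adjusted p = 0.299) and -0.15 (SE 0.11, adjusted p = 0.402). All 7 inhibitors of the pathway had estimates below 0, and 2 of them fell, the phosphatase genes Ptpn6 (-0.29, SE 0.07, adjusted p = 0.0271) and Ptpn11 (-0.33, SE 0.09, adjusted p = 0.0338). Of 19 tested nucleic acid sensors and adaptors, Tank (-0.28, SE 0.07) and Unc93b1, which carries Toll-like receptors to endosomes (-0.21, SE 0.06), fell and none rose.

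A wider list of 80 further interferon-stimulated genes, 76 of them tested, also moved in both directions with Tβ-MCA, with 9 higher and 6 lower. The higher genes included Psmb9 (log2 fold change 0.50, SE 0.09), Tap1 (0.26, SE 0.08) and Tapbp (0.23, SE 0.06), which serve the supply or loading of peptides for MHC class I. The guanylate-binding protein genes Gbp2 (1.08, SE 0.24), Gbp5 (1.47, SE 0.38) and Gbp7 (0.60, SE 0.15) were also higher. Gbp4 pointed the other way without a call (0.7941 to 1.024 CPM with PBS, 0.3509 to 0.4784 CPM with Tβ-MCA). Gbp3 overlapped PBS (7.294 to 10.51 and 9.631 to 10.58 CPM). Gbp5 had 2.47 to 3.785 CPM with PBS and 4.922 to 10.94 CPM with Tβ-MCA. Oas1c (0.88, SE 0.19) and Tor3a (0.59, SE 0.14) were higher as well. The lower genes were Slfn4 (-0.93, SE 0.19), Ifi205 (-1.0, SE 0.24), Slfn1 (-0.56, SE 0.13), Gvin1 (-0.80, SE 0.20), Oas1g (-0.91, SE 0.26) and Ly6e (-0.35, SE 0.10). Slfn4 had 307 to 369.4 CPM with PBS and 134.9 to 231.1 CPM with Tβ-MCA. The genes named here as higher or lower had an edgeR adjusted p between 0.0206 and 0.0473. With TCA and GCA none of the 119 tested genes of these pathway lists was called.

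Sample numbers carried a pattern of their own. The 42 genes were highest in replicate 3 of their group for 29 genes with TCA, 29 with GCA and 25 with Tβ-MCA, while among all genes tested replicate 3 was highest for 38.3%, 35% and 34.5%. With PBS it was highest for 17 genes, against 38.1% of all genes. Replicate 6, which no other group has, was highest there for 22 genes, against 31.1% of all genes. For 10 of the 42 genes (23.8%), namely Ifit3, Cmpk2, Isg15, Oas3, Parp14, Trim30a, Trim21, Sp100, Ifi27 and Eif2ak2, replicate 3 was the highest in all 4 groups, against 8.21% of all genes. Ifit3 had 7.168, 7.409, 9.403 and 4.963 CPM in replicate 3 of PBS, TCA, GCA and Tβ-MCA. In the other samples it had between 2.105 and 5.984 CPM, and the ratio of replicate 3 to the mean of the other samples of its group ran from 1.462 to 2.767. Among the called genes, Ifitm2, Ifitm6 and Samhd1 were lowest in replicate 3 of the Tβ-MCA samples. The labels do not say what the number stands for.

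**Figure D5:**
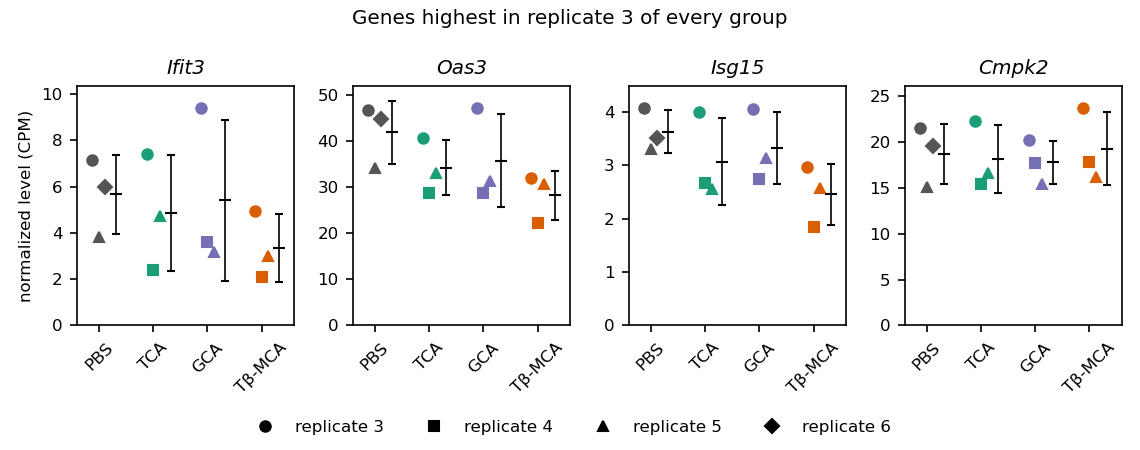
Normalized level in CPM (y axis, from 0) of Ifit3, Oas3, Isg15 and Cmpk2 in each sample of the 4 groups (x axis), with marker shapes for the replicate number and black bars for the mean ± SD of 3 samples. Circles, replicate 3, are the highest of their group in every panel, and the ratio to the other samples is largest for Ifit3 with GCA.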

How the data were processed

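mRNA of mouse bone marrow neutrophils was sequenced in 12 samples of 4 groups, which were assigned from the labels. According to the submitters' processing notes the authors used Trimmomatic 0.36, STAR 2.5.3a and featureCounts of Subread 1.5.1 with GRCm38/mm10, and they deposited raw counts per gene and RPKM values. Whether the counting used strand is not given in the sources used here. Counts of 2 outnumbered counts of 1 in every sample (at least 2136 against at most 761 genes), so both reads of a pair appear to have been counted, and a limit of 3 counts covers counting error only. That limit lay between 0.07251 and 0.09158 CPM.

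Counts were tested in R 4.3.3 with edgeR 4.0.16, by TMM normalization, filterByExpr by group and the robust quasi-likelihood test over all 12 samples. p-values were adjusted by the Benjamini-Hochberg method over all 16761 genes tested, and a gene was called at an adjusted p under 0.05. CPM values are TMM-normalized. The deposited RPKM values were used for levels between genes only. SE and 95% intervals were taken from the quasi-likelihood F statistic and its degrees of freedom. Alternatives were DESeq2 1.42.0, DESeq2 size factors, total library size, no filter on low counts, a minimum of 10 counts per sample, a fit of each pair of groups alone, a block for the replicate number, the thresholds of the study (an unadjusted p under 0.05 and a fold change of at least 2) and the loss of each sample. Figures were drawn with matplotlib 3.10.9.

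The labels number the replicates 3, 5 and 6 in PBS, and 3, 4 and 5 in the bile acid groups. The numbers were taken to pair samples where, with 3 pairs, the deviations from the group means correlated above 0.1 in every pair. This held for Tβ-MCA and GCA alone (r between 0.197 and 0.239). PBS shares only the numbers 3 and 5 with the bile acid groups, so no comparison with PBS could meet this rule. For numbers 3 and 5, r with PBS was 0.326 and 0.133 for TCA, 0.323 and 0.129 for GCA, and 0.24 and 0.06 for Tβ-MCA.

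Sample values are given for every called gene, for the most abundant gene and the gene with the lowest p of each role group, and for the extreme estimates against PBS, and pathway genes are given by list. Other genes in the text were named after their values were seen. The members and lists were chosen with earlier results of these data known, so that no list was tested as a set. Some genes of the pathway lists are counted but not reported here by name.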

Additional observations from a re-analysis of the deposited data

How the results depend on the processing

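The calls rest on few samples and on the choice of test. For Tβ-MCA against PBS, the 6 calls became 11 with DESeq2, 17 without a filter on low counts, 10 with the replicate block, and 0 with only the 2 groups compared and with the thresholds of the study, while the loss of a sample gave between 0 and 12. All genes called were then 12.4% with DESeq2, 8.09% without a filter, 8.94% with the block, 0% with only the 2 groups compared and 2.95% with the thresholds of the study. For Tβ-MCA against TCA, the 2 calls became 12 with DESeq2, 5 with total library size, 15 without a filter, 18 with the replicate block, 1 with only the 2 groups compared and 0 with the thresholds of the study (9.67%, 4.62%, 6.98%, 13.9%, 0.447% and 2.79% of all genes), and the loss of a sample gave between 0 and 13. For Tβ-MCA against GCA, the count of 0 became 1 with DESeq2, 10 without a filter and 4 with the replicate block (1.74%, 4.05% and 1.98% of all genes), and the loss of a sample gave between 0 and 8. The cause of these shifts was not tested. DESeq2 size factors and at least 10 counts in every sample kept each count within 1.5 times. TCA against PBS, GCA against PBS and GCA against TCA had 0 calls under every alternative run, when few of all genes were called either (without a filter 0.124%, 0.121% and 0.141%, with the thresholds of the study 0.465%, 0.531% and 0.442%).

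The median log2 fold change of the 42 genes stayed below 0 under every alternative only for Tβ-MCA against PBS (-0.19 to -0.07 with a sample left out, -0.01 with the replicate block). Between samples of the same number, the median log2 ratio of Tβ-MCA to PBS was -0.12 in number 3 and 0.06 in number 5. In number 5, 24 of the 42 genes lay above 0, so the direction was not the same in both. For the other comparisons the sign of the median was not stable. With a sample left out it ran from -0.14 to 0.05 for GCA against PBS (above 0 without PBS replicate 6 or GCA replicate 4 or 5), from -0.12 to 0.03 for TCA against PBS (above 0 without PBS replicate 6 or TCA replicate 4), from -0.11 to 0.07 for GCA against TCA, from -0.19 to 0.05 for Tβ-MCA against GCA and from -0.17 to 0.01 for Tβ-MCA against TCA (above 0 without replicate 3 of GCA or TCA). With the replicate block it was 0.09 for GCA against PBS, where the value was -0.07, and 0.07 for TCA against PBS, where it was -0.04. For Tβ-MCA against PBS, the estimates of 13 of the 42 genes took both signs over the alternatives, none of them a called gene. The share of promoters with an ISRE core fell from 51.5% to 24.2% when the core had to be followed by CT, against 0.303% of all genes of the promoter table.

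Over all genes, samples with the same replicate number correlated in their deviations with a mean r of 0.19 in 15 pairs, against -0.07 in 39 pairs with different numbers. Over the 42 genes the means were 0.46 and -0.17. Of the 15 pairs 12 were over 0.1, among them all 6 pairs of replicate 3 (0.197 to 0.326). Outside Tβ-MCA and GCA no comparison had 3 pairs that were all over 0.1, and comparisons with PBS had fewer than 3 pairs.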

Other observations

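The 17 genes with an ISRE core in the promoter and the 15 tested genes with a matched promoter and no core were set side by side as a description. With Tβ-MCA the median log2 fold change against PBS was -0.14 with the core and -0.10 without it. Among the genes with the core 1 was higher (Ifit1) and 2 lower (Ifitm3 and Ifitm2), and among those without it 1 was higher (Dtx3l) and 2 lower (Ifitm6 and Samhd1). Estimates ran from -0.76 for Ifit3 to 0.74 for Ifit1 with the core, and from -0.97 for Oasl1 to 0.53 for Dtx3l without it.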
